A study of Mus musculus with 20 samples.

Results

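The H19-Igf2 domain on mouse chromosome 7 was described in single blastocysts from 13 promoter windows among the 54034 of the whole table. The windows are all those on chromosome 7 whose start lies in the domain (build GRCm39). The first runs from 142060009 to 142063508 and the last from 142296619 to 142300118. They were taken by position, but with earlier results of these data known. Each window covers 3500 bp around an annotated gene start. The data are bisulfite methylation levels of DNA from single embryos, whose polyadenylated RNA had been taken off on beads. There were 10 Padi6-mutant blastocysts (replicates 11 to 20), which developed from oocytes with the P620A mutation of Padi6 as the series describes them, and 10 control blastocysts (replicates 1 to 10), labelled only as controls. PADI6 is an egg protein of the peptidylarginine deiminase family that is passed on to the embryo. The labels used here give no strain, mother, litter, age, sex or batch for an embryo, so embryos of a group may share a mother, and the p-values speak only for the variation among the embryos sampled.

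H19 and Igf2 are the classic pair of oppositely imprinted neighbours. H19 is a long noncoding RNA made from the maternal copy, Igf2 is a fetal growth factor made from the paternal copy, and Ins2 is an insulin gene beyond Igf2. A control region just upstream of H19 is methylated on the paternal copy, while on the unmethylated maternal copy the insulator protein CTCF binds and keeps shared enhancers away from Igf2. DNMT1, with its partner UHRF1, copies such marks when DNA is replicated, which is how an imprint is kept while most other methylation is lost in the early embryo. The comparison asks whether methylation of the domain differs at the blastocyst stage when the egg carried the mutation.

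Of the 13 windows, 4 belong to H19 by position (starts from 142127590 to 142131418), 4 to Igf2 (starts from 142208234 to 142223180), and 5 lie elsewhere in the domain and are named by position. No window was tied to Ins2, which was not analysed here. In the RefSeq gene order (GRCm38.p6) Tnnt3, Mrpl23 and Nctc1 precede H19, and Mir675, Gm33148, Igf2, Mir483, Igf2os and Ins2 follow it. The starts of these genes were not matched to windows. The 4 H19 windows overlap each other in a chain, and the pair of windows at 142208234 and 142210430 and the pair at 142220054 and 142223180 overlap too, so 8 of the 13 windows share bases with another and are not independent. The window just outside the domain on the left (start 142049573) had a mean of 6.52% in 4 mutant embryos and 18.1% in 7 control embryos. The one just outside on the right (start 142311090) had a mean of 4.17% in 3 mutant embryos and 6.25% in 8 control embryos, again with medians of 0%.

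The table of promoter sequences (RefSeq, GRCm38.p6) held 1 of the 3 named genes, Igf2, with 4 gene starts on the minus strand. They are shown because methylation was read at CpG sites, and the Igf2 starts differ widely in how many they offer. Each sequence runs from 250 bases before the start to 50 bases after it, 5′ to 3′, with every CpG in capitals. The windows are on GRCm39, so no start was matched to a window.
Igf2 start 1, chr7:142666767-142667066: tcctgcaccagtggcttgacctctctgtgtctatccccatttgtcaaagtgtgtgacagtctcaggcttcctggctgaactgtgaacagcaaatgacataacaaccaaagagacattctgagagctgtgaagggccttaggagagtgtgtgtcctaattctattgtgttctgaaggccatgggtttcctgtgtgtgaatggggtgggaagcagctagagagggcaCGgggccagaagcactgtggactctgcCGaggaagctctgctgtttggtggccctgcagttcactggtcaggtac
Igf2 start 2, chr7:142661222-142661521: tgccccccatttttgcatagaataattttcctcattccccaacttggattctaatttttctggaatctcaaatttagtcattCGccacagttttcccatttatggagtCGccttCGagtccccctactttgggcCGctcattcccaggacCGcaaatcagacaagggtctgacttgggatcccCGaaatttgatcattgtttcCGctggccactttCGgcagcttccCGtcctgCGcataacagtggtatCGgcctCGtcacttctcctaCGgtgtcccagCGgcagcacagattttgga
Igf2 start 3, chr7:142658755-142659054: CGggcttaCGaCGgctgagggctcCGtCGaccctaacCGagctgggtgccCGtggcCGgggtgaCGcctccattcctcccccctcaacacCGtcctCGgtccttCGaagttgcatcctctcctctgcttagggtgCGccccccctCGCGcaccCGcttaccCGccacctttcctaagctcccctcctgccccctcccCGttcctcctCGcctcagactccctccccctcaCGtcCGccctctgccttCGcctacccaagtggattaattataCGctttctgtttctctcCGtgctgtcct
Igf2 start 4, chr7:142657447-142657746: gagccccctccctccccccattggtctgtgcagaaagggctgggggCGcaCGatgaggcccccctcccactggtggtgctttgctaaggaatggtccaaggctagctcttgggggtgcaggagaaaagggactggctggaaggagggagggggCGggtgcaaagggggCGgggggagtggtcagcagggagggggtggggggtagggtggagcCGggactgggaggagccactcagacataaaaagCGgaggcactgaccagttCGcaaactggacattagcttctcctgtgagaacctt
From upstream to downstream the 4 starts held 2, 14, 24 and 7 CpGs, against a median of 7 over the 32851 promoters of the table. At least 24 CpGs were found in 20.0% of these promoters and at least 2 in 85.9%.

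Coverage was uneven and differed between the groups. Padi6-mutant embryos had a level in 2875 to 43812 windows of the whole table (median 12331.5) and control embryos in 4984 to 46950 (median 37253.5). Of the mutant embryos 3 had a level in at least 50% of the windows and are called densely covered, against 6 of the control embryos. Of the 130 possible values per group in the domain, mutant embryos gave 65 and control embryos 86. Mutant replicate 17 and control replicate 9 gave none. The table holds no read numbers, so the depth behind a level is unknown and no counting interval can be given. A level was exactly 0 in 34 of the 65 mutant values (52.3%) and in 27 of the 86 control values (31.4%), against 54.5% and 44.9% over all windows of the table.

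**Figure D1:**
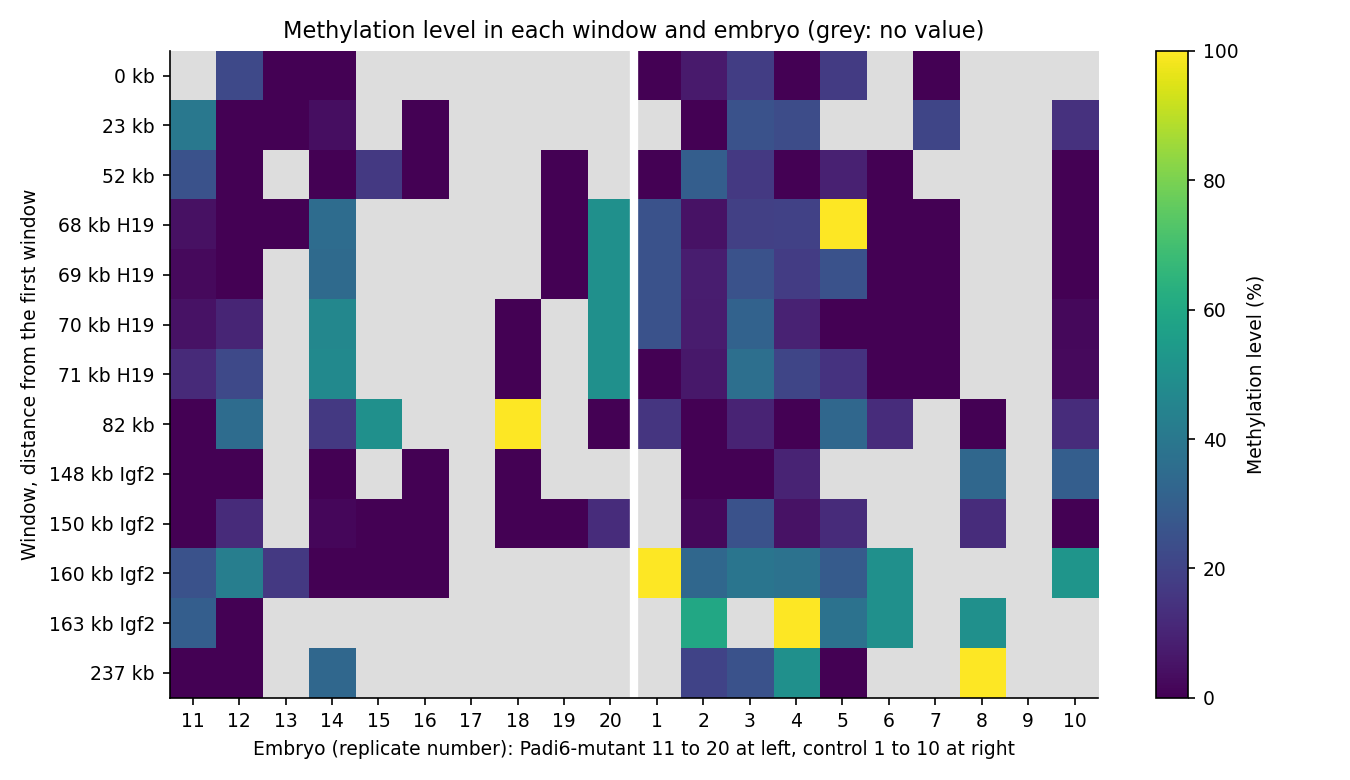
Methylation level (colour, in percent) of the 13 windows (rows, labelled by distance in kb from the first window) in each embryo (columns, Padi6-mutant at left and control at right); grey marks no value. The row at 160 kb (Igf2) has no value of 0 in the 7 control embryos, against 3 zeros among the 6 mutant embryos, and among mutant embryos the H19 rows are highest in replicates 14 and 20.

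At the H19 windows methylation was low in both groups, and the mean of the Padi6-mutant embryos was close to that of the control embryos within a wide spread. Averaged over the 4 windows, the level of an embryo was 15.0% ± 21.2 in mutant embryos (SD, n = 7) and 13.3% ± 13.5 in control embryos (SD, n = 8). Mutant embryos ran from 0% to 50% with a median of 5.93%, and control embryos from 0% to 35.0% with a median of 11.9%. The groups overlapped, but 2 mutant embryos (replicates 14 and 20, at 40.9% and 50%) lay above every control embryo. A mark on every paternal copy and on no maternal copy would give a level midway between 0% and 100%, and no control embryo reached that as its mean over the 4 windows. How much of the imprinting control region these windows hold cannot be read from the table.

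The window of H19 that starts at 142131418 reaches farthest upstream of the 4, to 142134917. It had 12%, 22.0%, 47.6%, 0% and 50% in mutant replicates 11, 12, 14, 18 and 20. The 8 control embryos ran from 0% to 36.4% with a median of 4.51%, and 3 of them were at 0%. Mutant replicates 14 and 20 lay above every control embryo. The means were 26.3% ± 22.0 in mutant embryos (SD, n = 5) and 10.1% ± 13.1 in control embryos (SD, n = 8). The difference of 16.2 percentage points (SE 9.22, 95% interval -3.87 to 36.2) did not pass the test (limma adjusted p = 0.834, exact permutation p = 0.134 unadjusted, two-sided). It was 10.3 points without mutant replicate 20 and 10.9 points without mutant replicate 14.

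The next H19 window (start 142130385) had 4.69%, 10.5%, 46.4%, 0% and 50% in the same 5 mutant embryos, and 0% to 31.6% in the 8 control embryos, with a median of 4.91%. Again mutant replicates 14 and 20 lay above every control embryo. The means differed by 12.8 points (SE 9.53, limma adjusted p = 0.834), and by 5.90 points without replicate 20 and 6.79 points without replicate 14. At the window starting at 142128586 mutant replicates 11, 12, 14, 19 and 20 had 2.5%, 0%, 34.4%, 0% and 50%, and the 8 control embryos ran from 0% to 25% with a median of 12.98%. This difference was 4.75 points (SE 9.26, limma adjusted p = 0.896), and among densely covered embryos alone it was -4.54 points. The 34.4% of mutant replicate 14 stands in the table without its decimal point. With that value left out the difference was 0.50 points, and without mutant replicate 20 it was -3.40 points.

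The H19 window farthest downstream (start 142127590) was the 1 of the 4 with a lower mutant mean. Its 6 mutant embryos ran from 0% to 50% with a median of 2.27%, and its 8 control embryos from 0% to 100% with a median of 11.8%. The difference of -6.02 points (SE 15.1, limma adjusted p = 0.920) turned to 5.27 points without control replicate 5, the embryo at 100%. Control replicate 5 had 25%, 0% and 14.8% at the other H19 windows. Among mutant embryos the same pair was highest at all 4 windows: replicate 20, a sparsely covered embryo, stood at 50% in each, and replicate 14, a densely covered one, at 34.4% to 47.6%. Since neighbouring windows of the chain share bases, these are not 4 separate measurements, though the outermost pair (starts 142127590 and 142131418) shares none. Without mutant replicate 20 the mutant minus control difference over the 4 windows was -4.15 points, against 1.68 points with it.

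A window between H19 and Igf2 (142142481 to 142145980), on the far side of H19's upstream end and overlapping no other, had 0%, 0%, 16.7%, 35.3%, 50% and 100% in the 6 mutant embryos, the last in the sparsely covered replicate 18. Its 8 control embryos ran from 0% to 33.3% with a median of 11.3%. The means were 33.7% ± 38.0 in mutant embryos (SD, n = 6) and 10.5% ± 11.2 in control embryos (SD, n = 8), a difference of 23.2 points that did not pass the test (SE 13.4, limma adjusted p = 0.834). Among densely covered embryos alone it was 5.40 points (3 mutant against 6 control embryos, exact permutation p = 0.524), and without mutant replicate 18 it was 9.89 points.

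All 4 Igf2 windows, which overlap in pairs, had a lower mean in the mutant embryos. A lower mutant mean was also found in 55.8% of all windows tested in the whole table. None of the 3 Igf2 windows that could be tested passed the threshold. Averaged over those 3 windows, the level of an embryo was 6.27% ± 7.81 in mutant embryos (SD, n = 9) and 33.9% ± 29.0 in control embryos (SD, n = 8). Of the mutant embryos 4 were at 0% and the highest stood at 18.4%, while control embryos ran from 11.8% to 100% with a median of 22.1%. The control mean exceeded each of the 9 mutant embryos, and 6 of them were lower than any control embryo. The control embryo at 100% was replicate 1, which had a value in 1 of the 3 windows. Without it the difference was -18.2 points, against -27.6 points with it. These means rest on different windows in different embryos: mutant replicates 18, 19 and 20 had no value in the window at 142220054, the highest of the 3, while control replicates 1 and 6 had a value in that window alone. Replicates 18 and 19 are among the 6. When the mean of each window was first subtracted from its values, the difference was -23.2 points.

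The clearest contrast was at the Igf2 window from 142220054 to 142223553. Mutant replicates 11 to 16 had 25%, 42.9%, 16.7%, 0%, 0% and 0%. The 7 control embryos ran from 28.6% to 100% with a median of 38.9%, and 5 of them had 33.3%, 37.5%, 38.9%, 50% and 52%. The groups overlapped through mutant replicate 12 alone: the other 5 mutant embryos lay below every control embryo. The means were 14.1% ± 17.6 in mutant embryos (SD, n = 6) and 48.6% ± 24.2 in control embryos (SD, n = 7).

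This difference of -34.5 points (SE 11.4, 95% interval -59.2 to -9.82) had an unadjusted limma p of 0.0101 and did not pass the correction over all windows (limma adjusted p = 0.615). An exact two-sided permutation test over the embryos of this window gave an unadjusted p of 0.00932, and the lowest p possible with 6 and 7 embryos is 0.00117. With sparsely covered embryos set aside, the means were 22.6% in 3 mutant and 48.4% in 6 control embryos, a difference of -25.8 points with an exact permutation p of 0.190. The sparsely covered embryos with a value were 3 mutant embryos, at 16.7%, 0% and 0%, and 1 control embryo, at 50%. Without control replicate 1 the difference was -26.0 points.

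The neighbouring Igf2 window (142223180 to 142226679), which overlaps it, had values in 2 mutant embryos and was not tested. They stood at 30% and 0%, in replicates 11 and 12. The 5 control embryos had 60%, 100%, 37.5%, 50% and 50%, all above both mutant embryos. In replicate 12 the window at 142220054 read 42.9% and this neighbour 0%, but the pair shares only the bases from 142223180 to 142223553.

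The remaining Igf2 windows were low in both groups. At the window from 142208234 to 142211733 all 5 mutant embryos with a value (replicates 11, 12, 14, 16 and 18) stood at exactly 0%. The 5 control embryos had 0%, 0%, 10%, 30% and 33.3%, the last in the sparsely covered replicate 8. Over all windows, 54.5% of mutant values and 44.9% of control values were exactly 0. The difference of -14.7 points (SE 6.95) did not pass (limma adjusted p = 0.834, exact permutation p = 0.167). At the window from 142210430 to 142213929 the 8 mutant embryos ran from 0% to 12.5% with a median of 0%, and 5 of them were at 0%. Its 6 control embryos ran from 0% to 25% with a median of 8.48%, and 1 was at 0%. The difference was -6.11 points (SE 4.01, limma adjusted p = 0.834). It was -2.99 points without control replicate 3 and -0.86 points with quantile normalization.

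**Figure D2:**
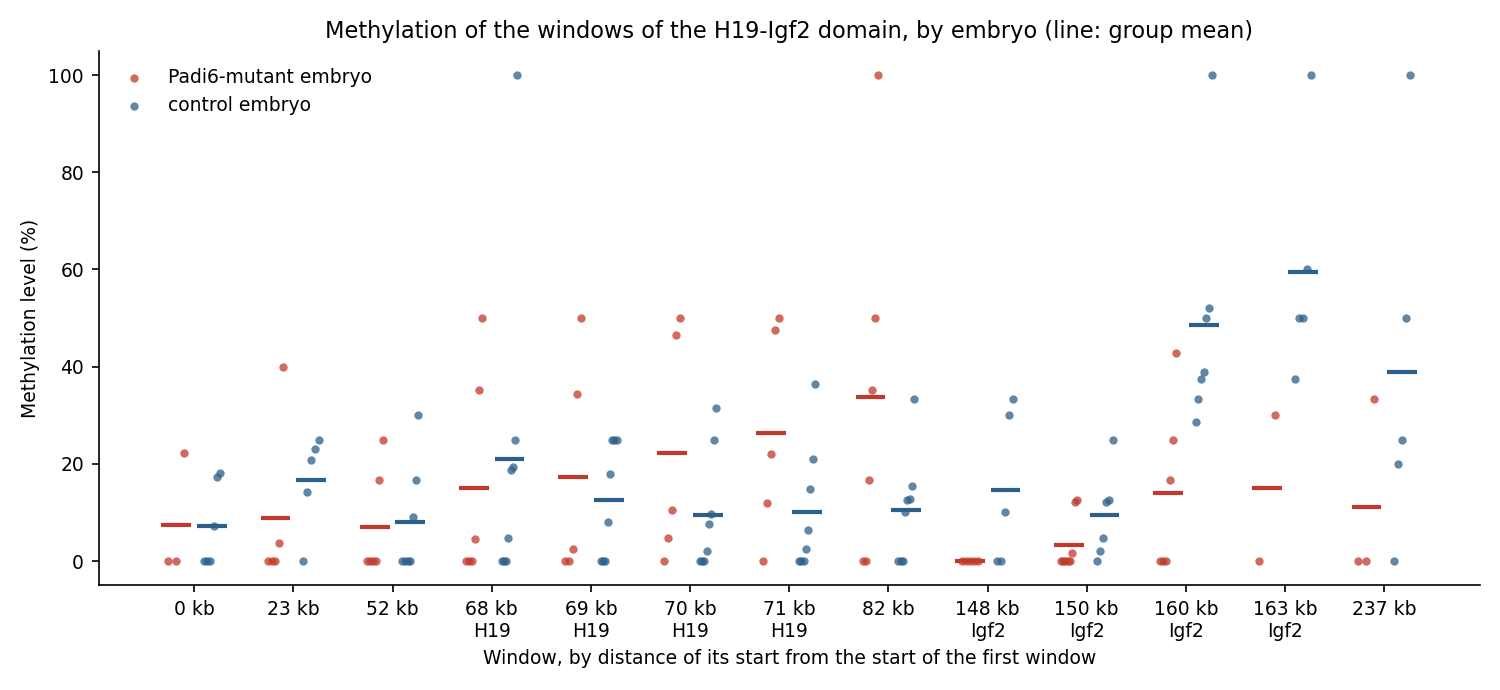
Methylation level in percent (vertical axis) of each embryo with a value (points) in the 13 windows (horizontal axis, distance in kb from the first window), with the group mean as a line; Padi6-mutant embryos are drawn left of control embryos. Control embryos at the 160 kb Igf2 window lie from 28.6% to 100%, and 5 of the 6 mutant embryos lie below them.

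The 4 other windows were mostly low. Closest to the left edge, the window starting at 142060009 had 22.2%, 0% and 0% in 3 mutant embryos and 0% to 18.2% in 6 control embryos, and their means of 7.41% and 7.12% differed by 0.29 points (SE 6.92). At 142083423 the mutant embryos had 40%, 0%, 0%, 3.77% and 0%, and the control embryos 0%, 25%, 23.1%, 20.8% and 14.3%, a difference of -7.88 points (SE 8.62). Without mutant replicate 11 it was -15.7 points, without control replicate 2 it was -12.04 points, and among densely covered embryos alone -0.999 points. At 142111838 the 6 mutant embryos ran from 0% to 25% and the 7 control embryos from 0% to 30%, with a median of 0% in each group and a difference of -1.02 points (SE 6.18). At the right edge, the window starting at 142296619 had 0%, 0% and 33.3% in mutant replicates 11, 12 and 14. Its control embryos had 20%, 25%, 50%, 0% and 100%, and the difference was -27.9 points with an SE of 22.2. Without control replicate 8, the embryo at 100%, it was -12.6 points. In each of these 4 windows the groups overlapped, and none passed the test (limma adjusted p of 0.834 to 0.997).

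Across the 12 windows tested, 0 passed the threshold in limma (adjusted p under 0.05), against 0.0372% of the 37645 windows tested in the whole table. At so low a background a count of 0 among 12 windows is no result about the domain. At an unadjusted p under 0.05, 1 of the 12 was lower in mutant embryos, against 3.9% of all windows tested, and 0 were higher, against 1.85%. A lower mutant mean was found in 7 of the 12, against 55.8% of all windows tested. The median difference was -3.52 points over the 12 windows and -1.07 points over all windows tested. The median level of the 12 windows was 12.6% in mutant and 11.6% in control embryos, against 8.46% and 9.66% over all windows tested. Averaged over the 12 windows, the level of an embryo was 12.99% ± 11.3 in mutant embryos (SD, n = 9) and 17.4% ± 10.2 in control embryos (SD, n = 9). These embryos had a value in 4 to 12 of the windows, and not in the same ones. The highest mutant embryo, replicate 20 at 35.4%, had 6 values, 4 of them in H19 windows. The highest control embryo, replicate 8 at 36.5%, had 4 values.

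**Figure D3:**
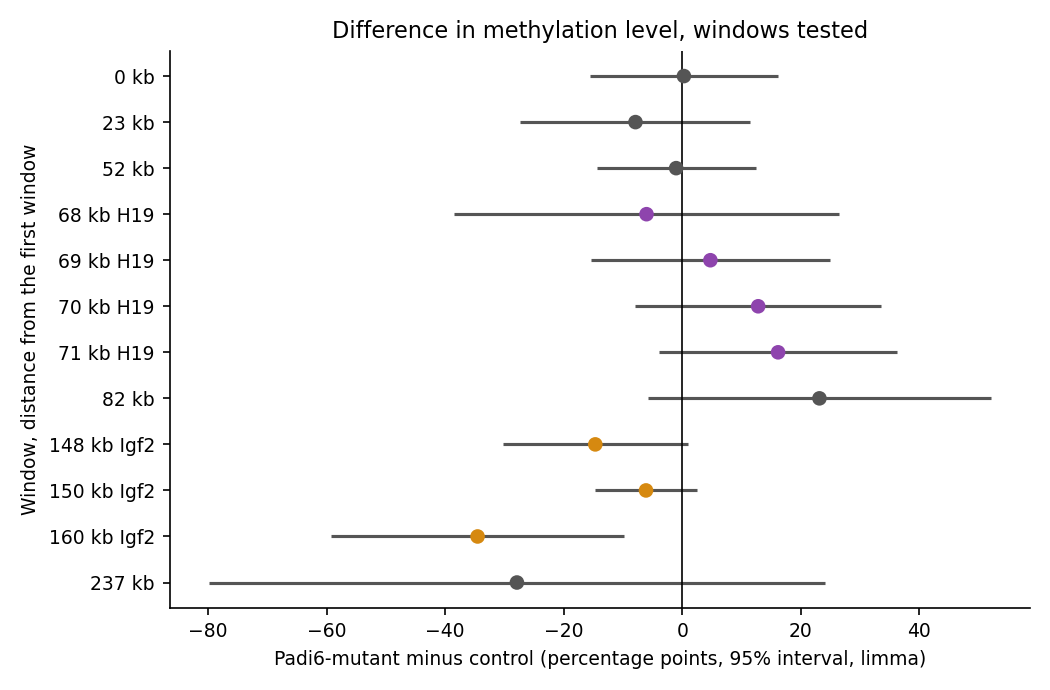
Difference in methylation level, Padi6-mutant minus control, in percentage points (horizontal axis) with the 95% interval from limma, for the 12 windows tested (vertical axis, distance in kb from the first window; purple H19, orange Igf2). The 160 kb Igf2 window, at -34.5 points, has an interval that leaves out 0, and the other 11 intervals include it.

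The order of the windows by mean level differed between the groups. In mutant embryos the highest were the window between H19 and Igf2 (33.7%) and the most upstream pair of H19 windows (26.3% and 22.3%). In control embryos the highest were the 2 upstream Igf2 windows (59.5% and 48.6%) and the right-edge window (39.0%), followed by the most downstream H19 window (21.0%). With SDs of 22.0 to 38.0 points among the leading mutant windows and 24.0 to 38.5 points among the leading control windows, neighbours in either order differed by less than their spread.

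Whether the Igf2 window at 142220054 and the H19 windows moved apart was tested within embryos that had a value in both, a comparison chosen after the values were seen. The Igf2 level minus the level of the H19 window at 142131418 was -4.57 points ± 37.5 in mutant embryos (SD, n = 3) and 37.0 points ± 33.0 in control embryos (SD, n = 7). This contrast of -41.6 points did not separate the groups (exact permutation p = 0.150, unadjusted, where 3 against 7 embryos can give 0.0167 at the smallest). Over the other H19 windows the contrast was -13.4 to -35.7 points with an exact permutation p of 0.150 to 0.624. Mutant replicate 14 stood at 0% in the Igf2 window and at 47.6% in the H19 window.

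A stretch of 90 windows on chromosome 12 (109503879 to 109993307), where the paternally methylated Dlk1-Meg3 domain lies, gives a measure of an imprinted region in the same embryos. It had been chosen for its difference in these data, so its values are a description. Its mean was 14.5% ± 10.4 in mutant embryos and 49.2% ± 4.85 in control embryos (SD, n = 10 each), and all 10 mutant embryos lay below the lowest control embryo. Mutant replicates 14 and 20, the highest at H19 with 40.9% and 50%, stood at 27.4% and 5.69% there. Control embryos spanned 40.9% to 56.5% in the chromosome 12 stretch, and 0% to 35.0% over the 4 H19 windows. An embryo had 8 to 89 values in the chromosome 12 stretch and at most 4 over the H19 windows, and the part of this in the wider spread was not tested. Mutant replicates 17 and 18, both at 0% in the chromosome 12 stretch, had 11 and 8 values there. Mutant replicate 20 had 13 values there, as did control replicate 9.

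**Figure D4:**
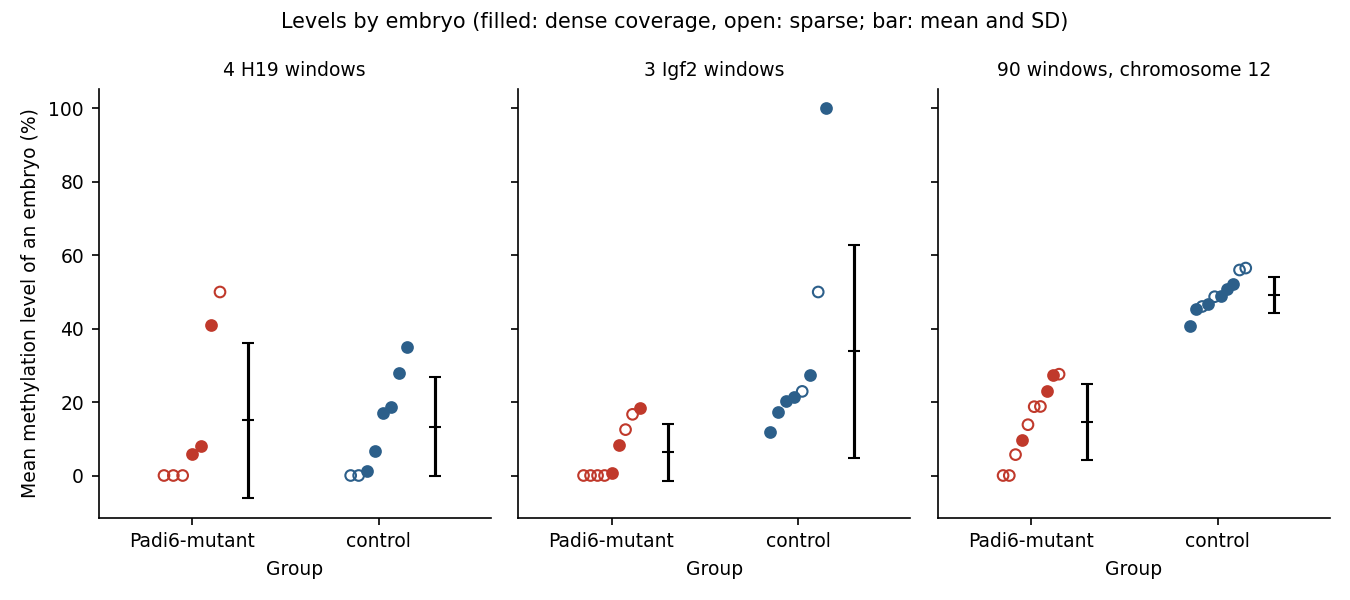
Mean methylation level of an embryo in percent (vertical axis) over 4 H19 windows, 3 Igf2 windows and 90 windows of a chromosome 12 stretch, in Padi6-mutant and control embryos (points; filled for dense coverage, open for sparse), with the group mean and SD beside them. The groups overlap at H19 (0% to 50% in mutant and 0% to 35.0% in control embryos). At Igf2, 6 of 9 mutant embryos lie below every control embryo, and on chromosome 12 all 10 do. In each panel embryos differ in which windows have a value.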

How the data were processed

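Single blastocysts were bisulfite-sequenced after removal of polyadenylated RNA, per the labels' protocols. Per the submitters' processing notes, Trim Galore 0.4.4 and Bismark 0.18.2 were used, on build GRCm39 (mm39). Methylation levels in percent, by promoter window and embryo, are what the authors deposited. Neither the way calls were combined nor a coverage minimum is given in the sources used here, so a level may rest on few reads and fall on coarse steps. The 46 repeated rows were dropped, leaving 54034 windows. Of 491705 values, 1594 were whole numbers above 100. None of the deposited percents had exactly 3 decimals, so these were read as percents with a lost decimal point and divided by 1000; 1 lies in the domain.

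The 37645 windows in which 3 or more embryos of each group had a value were compared on the percent scale with limma 3.58.1 (R 4.3.3) (lmFit, eBayes, Benjamini-Hochberg over all of them), tested on simulated data beforehand. Single windows also got two-sided exact permutation tests over embryos (scipy 1.17.1), unadjusted. Means over several windows got no test. The windows, parts and tests were chosen with earlier results of these data known. Every domain window is named; assignments to H19 and Igf2 follow position. The alternatives were minimums of 5 and 7 embryos, trend and robust fitting, quantile normalization, centred embryos, coverage as a covariate, dense or sparse embryos alone, values above 100 left out, non-overlapping or all windows, deviations from the window mean, and leaving out each embryo. Counts of promoters by gene name were not made, since windows carry no gene names on their build.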

Additional observations from a re-analysis of the deposited data

Results flagged for a closer look

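Single embryos stood apart from their group in 5 of 28 groups of values checked. The rule compared the gap to the nearest value, as a share of the range, with a fixed limit. That limit is meant for about 1 in 20 groups of normally distributed values. These levels hold many exact zeros, so the rate does not apply and 5 of 28 cannot be set against it. Several of these values share windows or an embryo. Mutant replicate 11 had 40% in the window starting at 142083423, where the next mutant embryo had 3.77%. Control replicate 5 had 100% in the H19 window starting at 142127590, against 25% in the next control embryo. The same embryo had 33.3% in the window starting at 142142481, against 15.4% in the next. Control replicate 1 had 100% in the Igf2 window starting at 142220054, against 52% in the next, and its level over the Igf2 windows, which rests on that window alone, was therefore 100%, against 50% in the next control embryo.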

How the results depend on the processing

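No paired analysis was possible because the labels give no mother, litter or batch that would link a mutant embryo to a control embryo. No domain window passed the threshold under any of the 7 alternatives that gave a value or with any embryo left out; the smallest of their adjusted limma p-values was 0.503. With at least 7 embryos per group and with sparsely covered embryos alone, no domain window could be tested. Of the 12 windows tested, 8 kept their direction in every refit that included them, 5 lower and 3 higher in mutant embryos. Among them were all 3 Igf2 windows and 2 of the 4 H19 windows. Leaving out an embryo with no value in a window gave back the same difference. At the Igf2 window at 142208234 every mutant value was 0%, so leaving out single embryos could not turn its direction. The share of all windows tested that kept their direction was not counted. The window at 142111838 (-1.02 points) turned to 2.01 with quantile normalization, 0.19 with centred embryos and 1.57 with coverage as a covariate, and ran from -4.63 to 2.65 with single embryos left out. The H19 window at 142128586 turned to -4.54 points in densely covered embryos and ran from -3.40 to 9.10 with single embryos left out. The H19 window at 142127590 (-13.0 to 5.27) and the window at 142060009 (-1.14 to 2.50) also changed sign with single embryos left out. The cause was not tested. With single embryos left out, the difference at the Igf2 window at 142220054 ran from -40.3 to -26.0 points, that over the 3 Igf2 windows from -30.8 to -18.2, that over the 4 H19 windows from -4.15 to 4.77 and that over the domain from -7.22 to -2.03. Under the other alternatives the Igf2 difference ran from -33.5 to -23.2 points, the H19 difference from 0.25 (non-overlapping windows) to 12.5 (sparsely covered embryos) and the domain difference from -6.49 to -3.58. Depth is unknown, so levels of 0% and 100% cannot be told from few reads.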

Other observations

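In the surroundings of the domain, 72 windows were tested within 1 Mb on either side. Of these, 40 had a lower mutant mean (55.6%), close to the 55.8% of all windows tested. Their median difference was -1.31 points, against -1.07 points over all windows tested.

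The windows outside chromosome 7 whose levels ran most like the H19 window at 142127590 over embryos were found among 4696 windows with at least 12 embryos in common (median r 0.01). The 5 most alike lie on chromosomes 2 (start 164452442), 5 (134202185), 19 (57532156), 11 (97590824) and 6 (38613678), with Pearson correlations of 0.93 to 0.97 over 12 or 13 embryos. Without control replicate 5, the embryo at 100% in the H19 window, they were 0.62 to 0.86. The values share embryos and their coverage, and the windows were picked for their correlation, so it is given as a description.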
